A study of Homo sapiens with 21 samples.

Results

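Circular RNAs made from the genes ADARB1, QKI, AGO2 and TNRC6B were followed in FaDu cells, an established line from a squamous carcinoma of the hypopharynx, with and without knockdown of IGF2BP3. Members were all entries that the authors' deposited tables assign to these 4 gene names. They comprised 24 of 8714 circRNAs and 46 of 14885 m6A sites, from 4 of 3809 host genes. ADARB1 gave 17 of the circRNAs and 19 of the sites, QKI 1 and 2, AGO2 2 and 4, and TNRC6B 4 and 21. The hosts were selected on the authors' m6A values, which differed there between knockdown and control, so every m6A value of theirs is given as a description with no test.

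The 4 proteins act on RNA after transcription. ADARB1 is an editing enzyme that turns adenosine into inosine in double-stranded RNA, and QKI is a STAR-family RNA-binding protein that steers splicing and can bring splice sites together so that a circle forms. AGO2 is the Argonaute that carries microRNAs and can cut their targets, and TNRC6B is a GW182 protein that links Argonautes to the deadenylases that shorten mRNA tails. A circRNA arises when a downstream splice donor joins an upstream acceptor, and reads over that back-splice junction are what distinguishes it from the linear transcript. N6-methyladenosine (m6A) is a methyl mark on RNA that readers such as IGF2BP3 bind.

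Junction reads came from 9 total-RNA libraries, 3 each of the controls (shCtr, labelled WT with a blank treatment) and of the IGF2BP3 knockdowns sh3-1 and sh3-2, taken here as separate hairpins. The m6A sites came from MeRIP-seq, an antibody pull-down of methylated RNA with matched input, in 3 pairs of sh3-2 and 3 pairs of shCtr libraries; sh3-1 had no such libraries among the samples. Every library is of FaDu, a single tumour line. Nothing in the labels tells whether replicates were grown as separate cultures, so a p-value here reflects spread among libraries that may be technical.

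Libraries held 5502 to 5818 junction reads in shCtr, 5023 to 5846 in sh3-1 and 3775 to 4168 in sh3-2. At that depth 1 library with no reads allows a level of up to 0.513 to 0.795 reads per 1000 (3 counts of the total, counting error only). Reads on circles of IGF2BP3 itself ranged from 0 to 6 in shCtr, 0 to 5 in sh3-1 and 0 to 6 in sh3-2, and these circles do not measure the linear mRNA that a hairpin targets. Among 8 squamous markers 1, EGFR, had circles (0 to 4 reads in shCtr and 0 in the hairpin libraries), and none of 5 fibroblast or 4 immune markers had any, so the cell type on the label could not be checked from circle counts. The libraries sh3-1 A and B shared 360 circRNAs found in no other library, and sh3-2 B and C shared 197, against 10 to 87 for the other 34 pairs. Results are therefore also given without sh3-1 B and sh3-2 C, a choice made after seeing the data.

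ADARB1 was a host of many rare circles. Its 17 circRNAs placed it 7th among 3809 hosts, level with 3 others, while 52.5% of hosts had 1 circRNA. Its 76 junction reads over the 9 libraries ranked 72nd, and the mean of 4.47 reads per circRNA compares with a median of 5.08 among the 39 hosts with at least 12 circRNAs. ADARB1 circles were exonic in 8 cases, sense overlapping in 8 and intronic in 1. The share in the authors' class sense overlapping, circles on a gene's strand that were called neither exonic nor intronic, was 47.1%, against 14.0% for circRNAs of the other hosts with at least 12 and 17.6% for all 8699 circRNAs with a named host. Few were catalogued: 11.8% carried a circBase ID, against 61.6% and 56.1%. These shares are descriptions, since circles of 1 gene are not independent.

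Most ADARB1 circles shared an end with another. The back-splice start at chr21:46536848 (hg19, plus strand) was used by 8 circRNAs, which held 44 of the 76 reads (57.9%). The end at 46554747 served 4 circRNAs with 25 reads, that at 46548488 served 3 with 14 reads, and that at 46564616 served 2 with 12 reads. In all, 88.2% of ADARB1 circRNAs shared an end, compared with 79.7% for circRNAs of the other many-circle hosts and 42.8% overall. The plot of ADARB1 circles and sites lays these out from the first back-splice position.

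**Figure D1:**
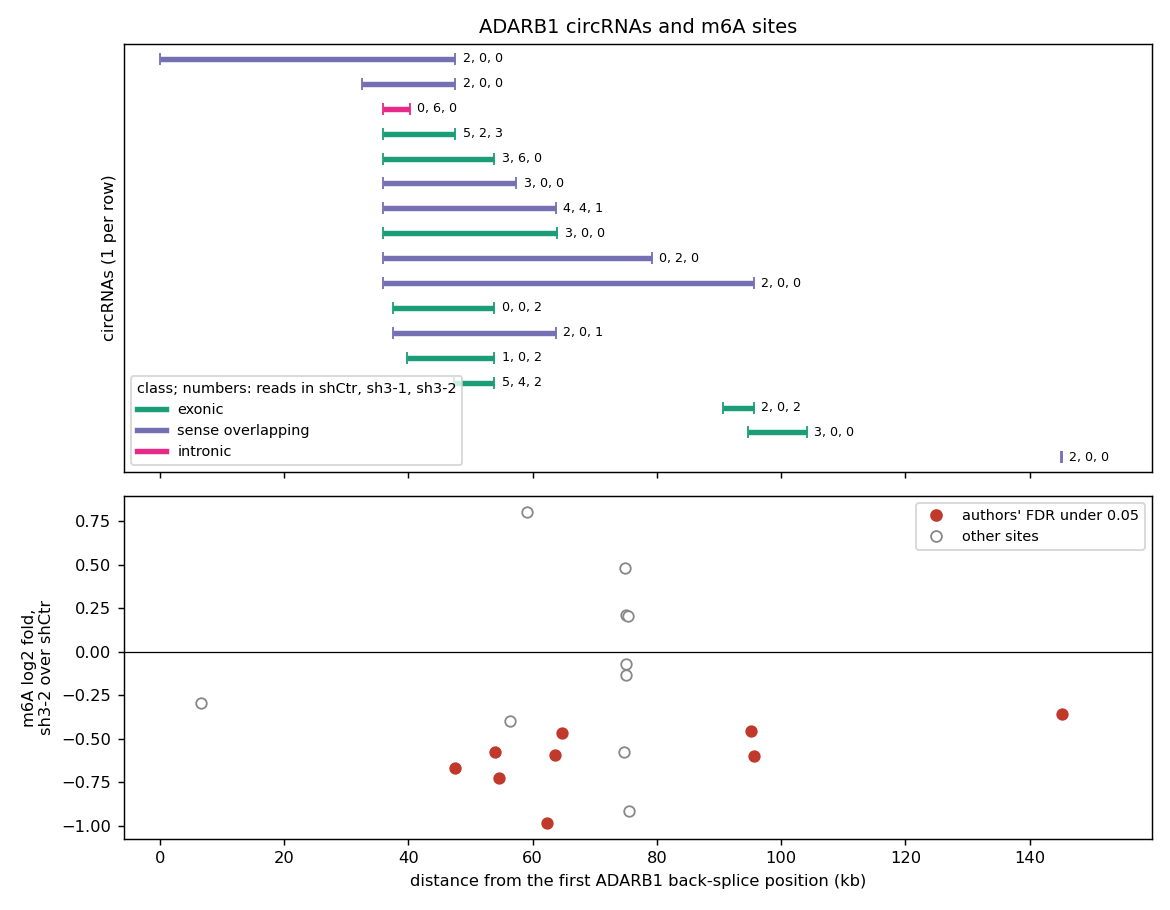
ADARB1 circRNAs (upper panel, 1 bar per circRNA coloured by class, with summed junction reads in shCtr, sh3-1 and sh3-2) and m6A sites (lower panel, log2 fold of sh3-2 over shCtr) against distance in kb. The 8 circles that share a start line up on the left of the crowded region, and the 9 sites at the authors' FDR under 0.05 (filled) all lie below 0.

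Mean read counts of ADARB1 were higher in the control libraries than in either knockdown, with overlap for sh3-1. The 3 shCtr libraries had 11, 15 and 13 junction reads, the sh3-1 libraries 13, 4 and 7, and the sh3-2 libraries 5, 2 and 6. Scaled to 1000 junction reads, the level was 2.31 ± 0.358 in shCtr (mean ± SD, n = 3), 1.498 ± 0.982 in sh3-1 and 1.09 ± 0.488 in sh3-2. All 3 sh3-2 libraries lay below all 3 controls, whereas sh3-1 A, at 2.59 per 1000, lay inside the control range of 2.00 to 2.70. Among 1137 hosts with at least 10 reads, 6.68% had all sh3-2 libraries below all controls, and the exact two-sided permutation test for ADARB1 gave p = 0.1, the smallest possible with 3 against 3. In bulk RNA, fewer cells carrying a circle and less of it per cell cannot be told apart.

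The difference in ADARB1 reads was not called by any test. In the quasi-likelihood test of edgeR over the 9 libraries, the log2 fold change was -1.17 for sh3-2 against shCtr (SE 0.73, adjusted p = 0.757) and -0.68 for sh3-1 (SE 0.69, adjusted p = 1.00). The sh3-1 value was -1.32 without sh3-1 A, -0.38 without sh3-1 B and -0.43 without sh3-1 C. For both hairpins together it was -0.93 (SE 0.59, adjusted p = 0.764). No host passed an FDR of 0.05 in these comparisons (0% called). At an unadjusted p under 0.05, edgeR had 27 hosts higher and 50 lower for both hairpins, and DESeq2, which also called 0, had 23 and 17. The exact permutation test of the share in 6 hairpin against 3 control libraries gave a difference of -1.02 reads per 1000 (p = 0.0714, adjusted p = 1), with 5 of 6 hairpin libraries below every control; 3.43% of hosts had p under 0.05 in that direction. Over exonic circles only the difference was -0.46 reads per 1000 (exact permutation p = 0.238). Without sh3-1 A the exact p was 0.0357, the smallest that design allows (adjusted p = 0.838), and without sh3-1 B and sh3-2 C it was 0.171. The hairpins did not differ detectably from each other (edgeR log2 -0.48, SE 0.75, adjusted p = 0.955), and that value turned to 0.16 without sh3-1 A.

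Knockdown libraries held fewer different ADARB1 circles, a difference that did not pass correction over all hosts and that draws on the same reads as the level. Control libraries had reads on 6, 7 and 7 ADARB1 circRNAs, sh3-1 libraries on 3, 3 and 3, and sh3-2 libraries on 2, 2 and 4. All 6 hairpin libraries thus lay below all 3 controls, a difference of -3.83 circRNAs per library (exact permutation p = 0.0238, the smallest that 84 arrangements allow; adjusted p = 1). Of 1137 hosts, 1.23% showed the same separation downward. This share, like that for the scaled number below, is over hosts with any number of circRNAs. A host with few circRNAs has less room to separate, and ADARB1 has 17. Most hairpin libraries also had fewer circRNAs of any host: controls detected 1784 to 2072, sh3-1 libraries 1686 to 1928 and sh3-2 libraries 1484 to 1746. Junction reads were below every control in sh3-2 only. The sh3-1 libraries overlapped the controls in junction reads, and sh3-1 B had the most of any library, 5846. Per 1000 circRNAs detected in the same library, the number was 3.41 ± 0.499 in shCtr (n = 3) and 1.68 ± 0.355 in the hairpin libraries (n = 6). The exact permutation p of that scaled number, a measure added after seeing the data, was again 0.0238 (adjusted p = 0.752), with 1.58% of hosts separated downward. At an exact permutation p under 0.05 on the scaled number, 18 of 1137 hosts were lower and 46 were higher. Without sh3-1 B and sh3-2 C the hairpin libraries had 2 to 3 ADARB1 circRNAs against 6 to 7.

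**Figure D2:**
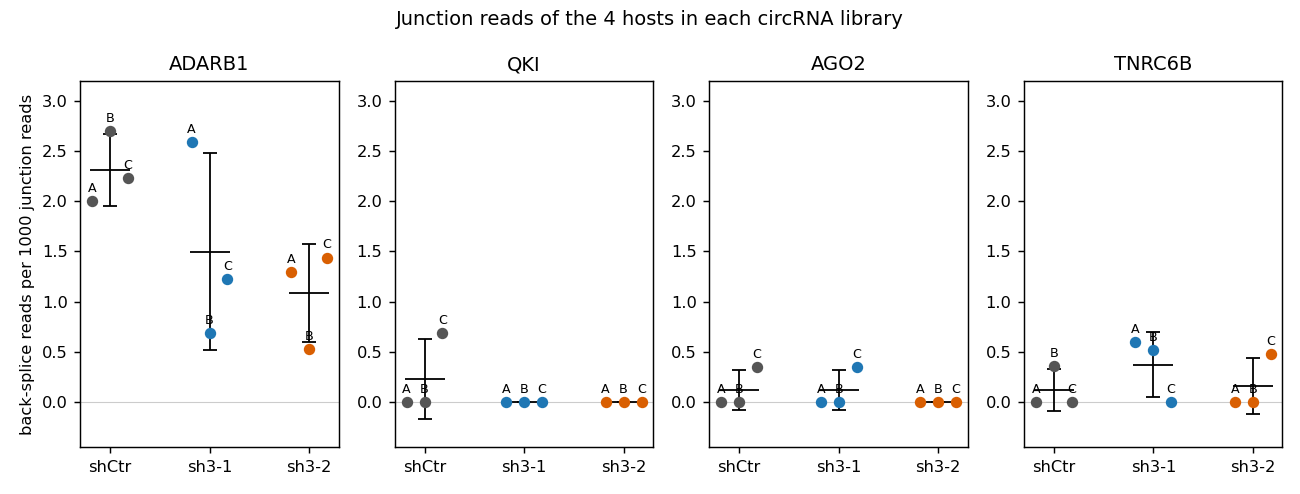
Back-splice reads per 1000 junction reads of each host in the 9 libraries (points, lettered A to C), with the group mean and SD (n = 3; bars that pass below 0 reflect counts near 0). ADARB1 lies at 2.00 to 2.70 in shCtr and at 0.530 to 1.44 in sh3-2, with sh3-1 A at 2.59, and QKI, AGO2 and TNRC6B are at 0 in most libraries.

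The reads did not rest on a single circle, and few circles recurred. Only 2 of the 24 circRNAs reached the 10 reads needed for a test, both exonic ADARB1 circles. The circle chr21:46548317-46554747 (hsa_circ_0005037, predicted length 290 bases) had the most, 11 reads in 6 libraries. It had 1, 0 and 4 reads in shCtr, 2, 0 and 2 in sh3-1, and 0, 1 and 1 in sh3-2. Its groups overlapped, and edgeR gave a log2 fold change of -0.56 for both hairpins (SE 1.57, adjusted p = 0.966). The circle chr21:46536848-46548488 (predicted 500 bases) had 5 reads in shCtr A, 2 in sh3-1 C, 3 in sh3-2 A and 0 in the other libraries. Its log2 fold change for both hairpins was -0.92 (SE 1.58, adjusted p = 0.934), again with overlapping groups. Over 726 circRNAs tested, edgeR called none in any comparison (0%); at an unadjusted p under 0.05 it had 17 higher and 37 lower for both hairpins. In the authors' deposited tables no member circRNA had an FDR under 0.512 for sh3-1 or under 0.558 for sh3-2.

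Other ADARB1 circles with at least 5 reads were uneven across libraries. The intronic circle chr21:46536848-46541085 had 6 reads, all in sh3-1 A, so this one junction gave 6 of that library's 13 ADARB1 reads. The exonic circle chr21:46536848-46554747 had 0, 2 and 1 reads in shCtr, 5, 1 and 0 in sh3-1 and none in sh3-2. The sense overlapping circle chr21:46536848-46564616 had 1, 3 and 0 in shCtr, 0, 1 and 3 in sh3-1 and 0, 1 and 0 in sh3-2. The remaining 12 ADARB1 circles had 2 to 4 reads each. Reads from the shared start at 46536848 numbered 20 in shCtr, 20 in sh3-1 and 4 in sh3-2, while reads from other ADARB1 starts numbered 19, 4 and 9. This split was made after the counts were seen, and it has no test.

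**Figure D3:**
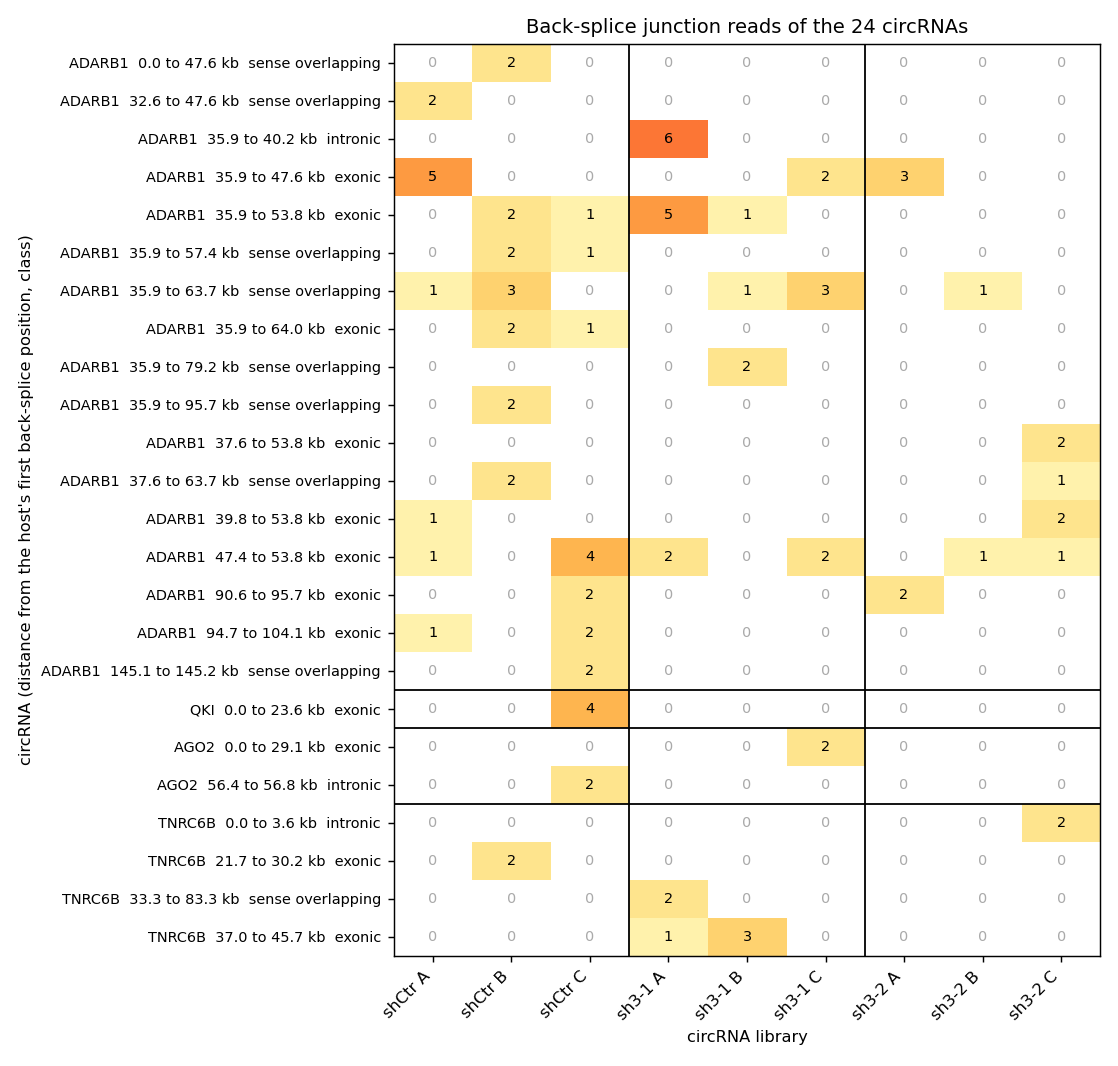
Junction reads of the 24 circRNAs (rows, labelled by host, distance in kb from the host's first back-splice position and class) in the 9 circRNA libraries (columns). Most cells hold 0 and no circRNA has reads in more than 6 libraries.

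QKI had 1 circle, chr6:163876311-163899928 on the plus strand (hsa_circ_0005328, exonic, predicted length 260 bases). Its 4 reads all came from shCtr C, and the other 8 libraries had none. That count is below the 10 reads needed for a test. With 0 in 2 of 3 controls as well, the groups overlapped, and a difference was not detectable at this depth.

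AGO2 had 2 circles, each seen in 1 library. The exonic circle chr8:141566266-141595410 on the minus strand (hsa_circ_0085720, predicted length 1124 bases) had 2 reads, both in sh3-1 C. An intronic circle at chr8:141622634-141623067 had 2 reads, both in shCtr C. Neither circle nor the host, with 4 reads in all, could be tested, and sh3-2 had no AGO2 read.

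TNRC6B had 4 circles with 10 reads, and the knockdowns were not set apart from the controls. Its libraries had 0, 2 and 0 reads in shCtr, 3, 3 and 0 in sh3-1, and 0, 0 and 2 in sh3-2, so all groups overlapped. The edgeR log2 fold change for both hairpins was 0.82 with an SE of 1.89 (adjusted p = 0.989). No TNRC6B circle was seen in more than 1 group: the exonic circle chr22:40673081-40681774 (hsa_circ_0005206) had 1 read in sh3-1 A and 3 in sh3-1 B, the libraries that shared many circRNAs with each other. The circle chr22:40669429-40719379, which carries all 21 TNRC6B sites, is sense overlapping, spans 49951 bases and had 2 reads, both in sh3-1 A. The other 2 circles had 2 reads each.

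The hosts whose counts ran most like those of ADARB1 over the 9 libraries were ZMYM2 (Pearson r = 0.93), ZFC3H1 (0.81) and MED13 (0.80), out of 491 compared on log2(reads per 1000 + 0.1). ZMYM2 had 4, 6 and 8 reads in shCtr, 6, 1 and 1 in sh3-1 and 2, 0 and 1 in sh3-2, with sh3-1 A above the other knockdown libraries as for ADARB1. For TNRC6B they were ATP2B1 (0.81), UBR2 (0.78) and UGGT2 (0.75). All points share the same 9 libraries, and the values describe likeness only.

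The m6A sites of these hosts were mostly lower in sh3-2 than in shCtr, apart from the site of TNRC6B at the authors' threshold. Of the 46 sites in the authors' deposited table, 37 were lower by sign (80.4%, against 51.7% of all sites). The median log2 fold was -0.45, against -0.01 over all sites. At the authors' FDR under 0.05, 11 sites were lower, 9 of them on ADARB1, 1 on QKI and 1 on AGO2, and 1 site, on TNRC6B, was higher. Over all sites 4.53% were called lower and 4.47% higher. Since these values chose the hosts, the counts are a description. The table gives 1 fold per site over both groups of libraries, with no value per library, and does not state whether folds are corrected for input.

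**Figure D4:**
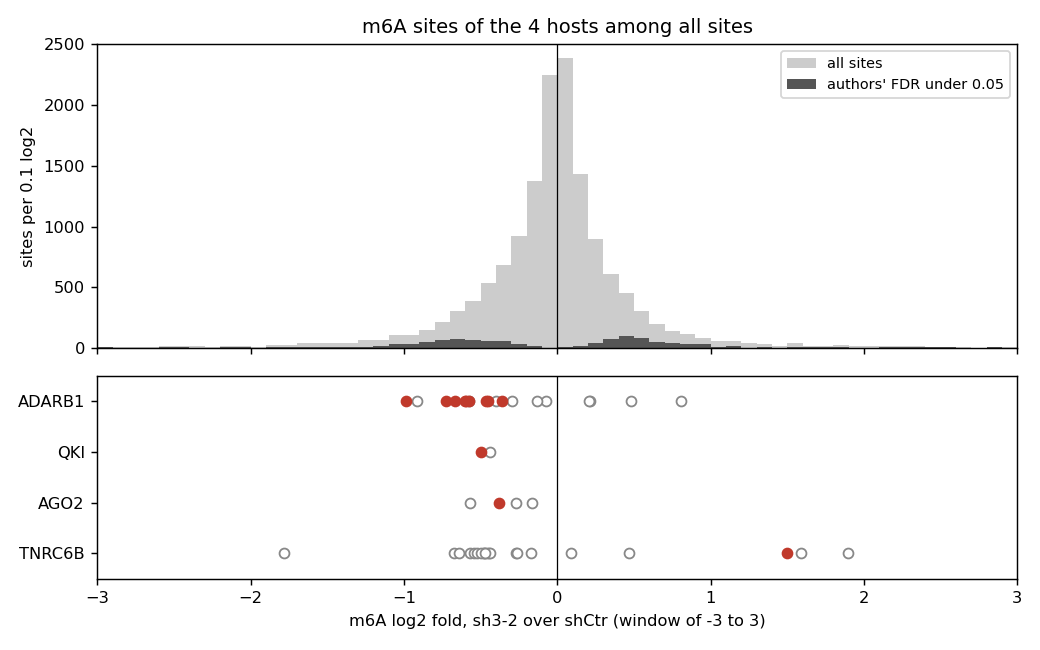
Distribution of m6A log2 fold (sh3-2 over shCtr) over all sites of the authors' deposited table (upper panel, sites per 0.1 log2, dark where FDR is under 0.05) and the 46 sites of the 4 hosts (lower panel, filled where FDR is under 0.05), within a window of -3 to 3. Of the 12 filled points, 11 lie below 0 and 1, of TNRC6B, lies above.

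The ADARB1 sites at that FDR had folds of 1.28 to 1.98 in the authors' deposited table, all lower, with a median of 1.51; over all sites called the median fold was 1.61. In the crowded 5′ part of the circle region, chr21:46563042-46563340 was lower by 1.98-fold (FDR 0.000134) and chr21:46555242-46555620 by 1.65-fold. The sites chr21:46548102-46548740 (1.59-fold, FDR 0.00751) and chr21:46554542-46555040 (1.49-fold, FDR 0.00247) each cover a back-splice end, at 46548317 and 46548488 in the first and at 46554747 in the second. The site chr21:46564282-46564740 was lower by 1.51-fold in the authors' deposited table (FDR 0.000179) and covers the end at 46564616. Just inside the threshold stood chr21:46565222-46565940 (1.38-fold, FDR 0.0388 in the authors' deposited table).

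Further 3′, a pair of neighbouring sites fell on the exonic circle chr21:46595645-46605006. In the authors' deposited table chr21:46595645-46596540 was lower by 1.37-fold (FDR 0.00149), and chr21:46596562-46596579, a site of 18 bases, by 1.52-fold (FDR 0.0088). The last site, chr21:46645979-46646159, is the whole of a circle of 181 bases and was lower by 1.28-fold in the authors' deposited table (FDR 0.000773). The 10 other ADARB1 sites were far from the threshold, with FDR of at least 0.724 in that table, and 4 of them were higher by sign. A cluster of 7 overlapping sites at chr21:46575422-46576580 held both signs, and of 11 overlapping ADARB1 site pairs 8 had opposite directions; over all sites the share of overlapping pairs with opposite directions was 69.8%.

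Some called ADARB1 sites covered the genomic position of a back-splice end, which is not the same as covering the junction itself. A back-splice end of any ADARB1 circle lay inside 6 of the 9 sites at the FDR threshold and inside none of the 10 others. Most of the 10 overlap one another in the cluster described above, so they are not separate places. With overlapping sites merged ADARB1 had 13 sites, 9 of them called. Of the 9, 2 touched an end of the circle they are listed under: chr21:46645979-46646159 is that whole circle, and chr21:46595645-46596540 begins at its circle's start. Over all 14885 sites an end lay inside 34.9% of those called lower, 29.4% of those called higher and 25.0% of those not called, and 196 of the 674 called lower touched an end of their own circle. For sites on sense overlapping circles, the class of most ADARB1 sites, these shares were 21.2%, 18.8% and 13.6%. ADARB1 has 17 circRNAs against a median of 1 per host, so more ends could fall inside its sites. Called sites were also longer, with a median of 459 bases on ADARB1 against 239 for its other sites. Overlap of a site with a back-splice end does not place the mark on a circle, since linear ADARB1 RNA, spliced or unspliced, can hold the same bases.

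The table lists each site under 1 circRNA, although several may contain it. By genomic span, the site chr21:46548102-46548740 lies wholly inside 9 ADARB1 circRNAs, and chr21:46555242-46555620 inside 6. A span includes introns, so an exonic circle need not hold the bases of a site within its span. The exonic circle chr21:46536848-46554747, for example, spans 17900 bases and has a predicted length of 834. The 5 ADARB1 circRNAs credited with a called site had 19 junction reads, 12 in shCtr, 6 in sh3-1 and 1 in sh3-2. ADARB1 circRNAs without one had 27, 18 and 12. Counting every ADARB1 circRNA whose genomic span wholly contains a called site, 12 circRNAs had 25, 12 and 8 reads. The 5 whose span contains none had 14, 12 and 5. This split does not show which circles carry the marked bases.

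On QKI both sites, of 143 and 117 bases, together match the circle's predicted length of 260 bases. Each therefore reaches a circle end wherever the mark lies within it. In the authors' deposited table chr6:163899812-163899928, at the circle's downstream end, was lower by 1.41-fold (FDR 9.79e-05). The site at the upstream end, chr6:163876311-163876453, was lower by 1.35-fold in that table and missed the threshold (FDR 0.127). On AGO2 all 4 sites of the exonic circle were lower by sign. The authors' deposited table has chr8:141566266-141566385, at the circle's downstream end on the minus strand, lower by 1.30-fold (FDR 0.0124), and the others lower by 1.12-fold to 1.49-fold (FDR 0.766 to 0.974).

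TNRC6B had the widest spread of folds of the 4 hosts. The called site chr22:40691322-40691720 was higher by 2.82-fold in the authors' deposited table (FDR 0.0134). Just outside the threshold in that table were chr22:40691022-40691220, lower by 3.44-fold (FDR 0.0577), chr22:40692722-40693020, higher by 3.72-fold (FDR 0.0597), and chr22:40711642-40711840, higher by 3.01-fold (FDR 0.0603). The first of these lies beside the called site and points the other way. By sign 16 of the 21 sites were lower, and all 3 overlapping pairs had opposite directions. The map of TNRC6B circles and sites shows that 20 of the 21 sites lie within the span of 1 circle only.

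**Figure D5:**
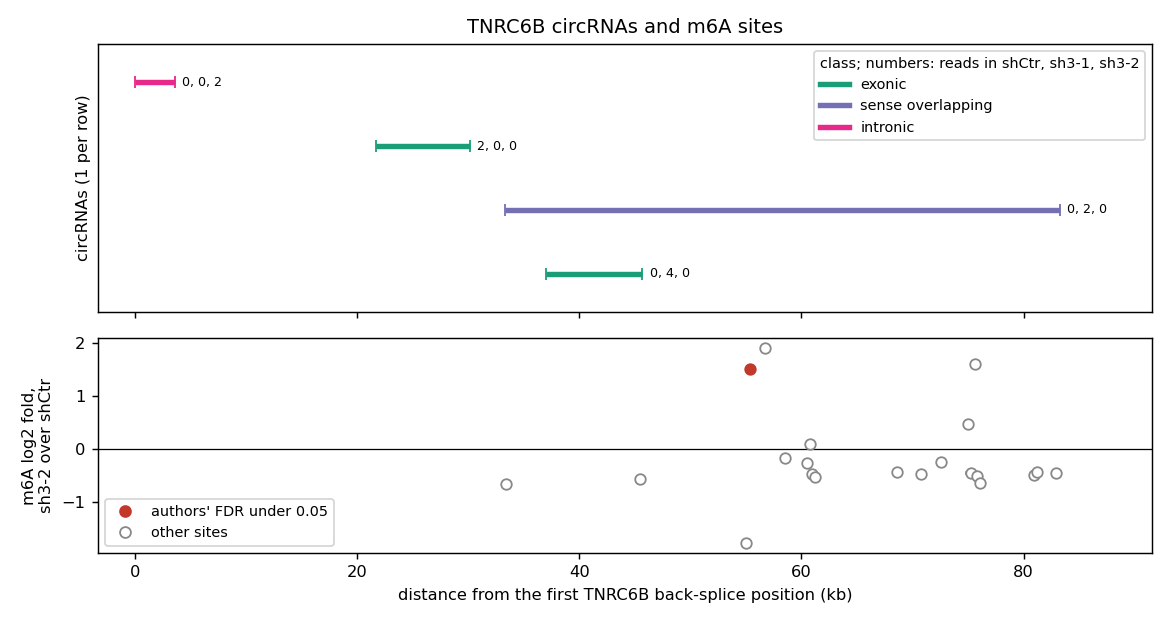
TNRC6B circRNAs (upper panel, summed junction reads in shCtr, sh3-1 and sh3-2 beside each) and m6A sites (lower panel, log2 fold of sh3-2 over shCtr) against distance in kb from the first back-splice position. The called site (filled) is higher, at a log2 fold of 1.496, next to the lowest site at -1.78.

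Several circles credited with sites had no junction reads in the groups that MeRIP compared. Of the 9 member circRNAs with sites, 3 had no junction read in either shCtr or sh3-2: the TNRC6B circle, the AGO2 circle and the ADARB1 circle chr21:46536848-46580138. In sh3-2 alone 8 of the 9 had none. Among all 2893 counted circRNAs with sites, 25.6% had no read in either group and 60.5% none in sh3-2.

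Other genes of the editing, circle-forming and microRNA pathways showed no common shift in circle counts. A list of 49 such genes, the 4 hosts included, had circRNAs from 29 genes (89 circRNAs, 346 reads), and 10 genes had enough reads to test. For both hairpins 5 of these lay above 0 and 5 below, none was called by edgeR (0% of hosts), and the median log2 fold change was 0.13 against -0.16 over all hosts tested. XPO5, which exports precursor microRNAs from the nucleus, had 14 reads in shCtr, 10 in sh3-1 and 2 in sh3-2 (edgeR log2 -1.35 for both hairpins, adjusted p = 0.916). CNOT2, a subunit of the CCR4-NOT deadenylase, had 14, 8 and 2 (log2 -1.40, adjusted p = 0.916). Next by reads, and named after their values were seen, CNOT6, a deadenylase of the same complex, had 5, 7 and 10 (log2 0.84, adjusted p = 0.986), and DDX6, a helicase of mRNA decay, had 8, 14 and 0 (adjusted p = 0.829). Outside the 4 hosts the list held 80 m6A sites, 4 lower and 1 higher at the authors' FDR under 0.05, or 6.25% called against 9% of all sites. The Argonaute AGO4 and the deadenylase scaffold CNOT1 had 1 of the lower sites each, and the higher one was on DDX6. Of 16 circle-forming and double-stranded RNA factors, 6 had circRNAs; of 3 GW182 genes TNRC6B alone did, and of 4 Argonaute genes 3 did.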

How the data were processed

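Junction reads of 9 circRNA libraries and m6A sites from 12 MeRIP libraries were analysed. The deposited circRNA tables give whole-number counts of back-splice reads, per the file headers. The authors also deposited a log2 fold change, a p-value and an FDR per circRNA. The authors' deposited m6A tables give a fold (a ratio, never under 1, whose direction stands apart), a p-value, an FDR, a score that is the −log10 of the p-value, and lengths in bases. The submitters' processing notes list, with no role, the build hg19 and STAR 2.5.1b, cutadapt 1.9.3 and edgeR 3.16.5. The sources used here do not name the circRNA caller. Site names carry the prefix diffreps. The 24 columns of log2 CPM per library were not used.

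A circRNA absent from a hairpin's tables was counted as 0 there; the 14865 control values found in both comparisons' tables were identical, and the 3759 circRNAs in 1 comparison's tables had no control reads. Reads were summed by host. Hosts or circRNAs with at least 10 reads were fitted over 9 libraries with the quasi-likelihood test of edgeR 4.0.16 (R 4.3.3, TMM factors, group means, no block, Benjamini-Hochberg over all features tested, call at FDR under 0.05). Shares per 1000 junction reads were compared by exact permutation tests (Python 3.11.15). Junction reads are not independent molecules, so floors cover counting error only. TMM scaling put the median log2 fold change of all hosts at -0.16 for sh3-2 against shCtr, and library totals at -0.05. The edgeR script was tested on simulated data, where it missed most of the changes put in. An absence of calls at this depth therefore does not show that counts were unchanged. DESeq2 1.42.0, other scalings and filters, and leaving out each library were alternatives.

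The members, the gene list and the tests were chosen with earlier results of these data known. Genes outside the members were named by rule: all called genes of the list, otherwise the 3 with the most reads and the 3 with the most called sites (several tied at 1), and the 3 hosts most like each member with at least 10 reads. One gene that this rule names is not reported here. CNOT6 and DDX6 were named outside this rule. Coordinates are 1-based in hg19. No genome sequence was used.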

Additional observations from a re-analysis of the deposited data

How the results depend on the processing

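No setting called a host in any comparison, under edgeR or DESeq2. ADARB1 kept a log2 fold change below 0 in 18 of 18 fits for both hairpins (-1.24 to -0.77, adjusted p 0.548 to 0.998) and in 19 of 19 for each hairpin alone (-1.32 to -0.34 for sh3-1, -1.56 to -0.86 for sh3-2). Its exact permutation p was 0.0238 for the number of distinct circles in place of reads, as counted or per 1000 detected. For the share it was 0.238 over exonic circles only, and between these values otherwise. The smallest p possible was 0.0714 with a control library left out and 0.0357 with a hairpin library left out, so these p-values have unlike floors. Without sh3-1 A the ADARB1 fold of sh3-2 against sh3-1 turned positive; leaving out each library gave -0.78 to 0.16. The TNRC6B fold of sh3-2 against shCtr ranged from -0.20 to 0.78 over the 5 of 9 leave-outs in which it kept 10 reads, turning negative without shCtr A or C.

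At the circRNA level, sh3-2 against shCtr had 1 call in place of 0 (a GDI2 circle, not a member) with at least 20 reads, with the 6 libraries of the comparison only and without sh3-1 B and sh3-2 C; leaving out each library gave 0 to 1. The circle chr21:46536848-46548488 turned to 0.13 for sh3-1 against shCtr and to -0.46 for sh3-2 against sh3-1 under the replicate block. For sh3-2 against shCtr it ranged from -1.05 to 0.22 over the 6 of 9 leave-outs in which it kept 10 reads, and was 0.18 without sh3-1 B and sh3-2 C. The circle chr21:46548317-46554747 ranged from -0.61 to 0.28 for sh3-1 against shCtr and from -1.01 to 0.016 for sh3-2 against sh3-1 over its own 6 such leave-outs, and was 0.38 for sh3-1 without sh3-1 B and sh3-2 C. The cause was not tested.

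Of the 11 member m6A sites lower at the authors' FDR, 5 also had a fold of at least 1.5, and 4 lay on exonic circles. The 1 higher site became 0 at FDR under 0.01 and on exonic circles, and 3 at an unadjusted p under 0.05. Merging overlapping sites left both counts as they were.

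No pairing of libraries by the replicate letters A to C was detectable at this depth: deviations of same-letter libraries correlated at -0.08 to 0.07, those of other letters at -0.05 to 0.09. Low counts could hide a pairing. With the letter as a replicate block edgeR called 0 hosts and ADARB1 had a log2 fold change of -1.06 for both hairpins. Depth limits the rest: QKI and AGO2 had 4 reads each, and of 24 circRNAs 2 could be tested.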
